A study of Medicago truncatula with 6 samples.

Results

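Repeat regions are intervals that the annotation of the Medicago truncatula genome marks as repetitive DNA, most of it left by transposable elements. They were taken as every feature whose ID begins with repeat_region, and 23686 of the 400216 annotated features met this rule. Small RNA had been counted over them in roots of this model legume in 6 libraries from 2 groups of 3. Both groups are labelled wild type in genotype, root in tissue and mock in treatment. One carried an RNAi construct against GUS, a bacterial reporter gene commonly used as a control for RNAi, and the other a construct against SKI3, a member of the Superkiller complex, which works with the RNA exosome to degrade RNA. The labels do not give the promoter of the constructs, the age of the plants or whether a library came from 1 root system or a pool. Fewer cells of a type and less small RNA per cell cannot be told apart in such bulk samples.

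Plants cut transcripts of transposable elements into short interfering RNAs, which guide the silencing of the elements they came from. LTR retrotransposons move through an RNA copy and carry long terminal repeats, and Copia and Gypsy are their main superfamilies. TRIM elements are short relatives that keep the terminal repeats and have lost the coding region. DNA transposons with terminal inverted repeats (TIR) move as DNA, and helitrons are DNA transposons thought to spread by rolling-circle replication. Because copies of an element can be nearly identical, a short read can match several of them, and regions with like counts need not be separate measurements.

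The GUS RNAi libraries held 3974092, 2168297 and 3486290 counts over all features in replicates 1 to 3, and the SKI3 RNAi libraries 2851473, 2324061 and 2612141. Counts were divided by the library total and expressed as CPM, the usual per-library scaling of counts, and a floor of 3 counts lay between 0.755 and 1.38 CPM. Repeat regions took 16.7%, 15.8% and 15.1% of the counts in GUS RNAi against 15.4%, 15.4% and 15.6% in SKI3 RNAi. Over the tested profiles of repeat regions, Pearson's r of log2(CPM + 1) between libraries had a mean of 0.940 for 6 pairs of the same group and 0.938 for 9 pairs of different groups, with ranges that overlapped. This r is across regions, which are not independent replicates. Some regions went against that general likeness and were near 0 in some libraries of a group and high in others. They are described last, and SKI3 RNAi replicate 1 decided several of them.

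Most repeat regions had no count in any library. Of the 23686 regions, 7095 (30.0%) had a count in 1 or more libraries, and 16591 were at 0 in all 6. Their IDs run in 2 number series, and detection differed widely between the series. The numbers of 15715 regions follow the series of annotated TIR elements, and an element of the same number was found for 10320 of them. Those of the other 7971 regions follow the joint order of LTR and TRIM elements along the chromosomes. The files do not state this link. It was inferred from the numbers and the order of the IDs: an element of the same number lay on the same chromosome for 10320 of 10320 TIR-numbered regions that had one, and for 2542 of 2542 LTR/TRIM-numbered regions that could be placed. Because the numbers rise along the rows, agreement of the chromosomes was largely fixed in advance. A fragment of that element lay within 10 rows of the region in the feature table for 1561 of the 10320 and 689 of the 2542. Within 3 rows it was 1265 for TIR elements, against 181 and 220 beside the regions numbered 1 lower and 1 higher. For LTR and TRIM elements it was 558, against 56 and 75. Kinds, lengths and levels per length rest on this link.

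Only 431 TIR-numbered regions (2.74%) had a count, and they held 2.08% of all counts in repeat regions. Among LTR/TRIM-numbered regions 6664 (83.6%) had a count, and they held the other 97.9%. TIR features other than repeat regions were not short of counts. Coordinates of the repeat regions were not available, so whether the 2 sorts of feature overlap in the genome was not tested. Of 97165 features annotated as TIR element fragments 79435 (81.8%) had a count, and these features took 13.2% ± 0.655 of the library in GUS RNAi against 14.3% ± 0.669 in SKI3 RNAi (SD, n = 3).

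Element length went with detection among TIR-numbered regions. Lengths were taken from the coordinates in the element IDs. A count was found for 13 of 5384 regions (0.241%) of up to 1000 bp, 47 of 2608 (1.80%) of 1000 to 3000 bp, 301 of 2278 (13.2%) of 3000 to 10000 bp and 7 of 50 longer ones. The median length was 5436 bp with a count and 896 bp without. TRIM elements of the same size behaved otherwise, and 484 of 757 (63.9%) of up to 1000 bp had a count. Of LTR elements of 3000 to 10000 bp 598 of 599 had one.

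Placed LTR/TRIM-numbered regions were compared by kind. All 634 Gypsy regions had a count, as did 385 of 386 Copia regions, 211 of 213 LTR regions of no assigned superfamily and 869 of 1309 TRIM regions (66.4%). Per length, TRIM regions stood highest, at 4.21, 4.53 and 3.88 CPM per kb in GUS RNAi against 4.34, 4.71 and 4.37 in SKI3 RNAi. Copia regions followed, at 4.22, 3.55 and 3.29 CPM per kb in GUS RNAi against 3.56, 3.38 and 3.62 in SKI3 RNAi. Copia and TRIM regions overlapped across libraries, and both lay above Gypsy regions, at 2.91 ± 0.0122 CPM per kb in GUS RNAi against 2.78 ± 0.0477 in SKI3 RNAi. Unclassified LTR regions had 0.867 ± 0.0424 and 0.960 ± 0.0357 CPM per kb, and TIR-numbered regions with an element of their number 0.140 ± 0.0085 and 0.148 ± 0.0070. The order from Gypsy down to TIR was the same in all 6 libraries, and no 2 of these 3 kinds overlapped.

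**Figure D1:**
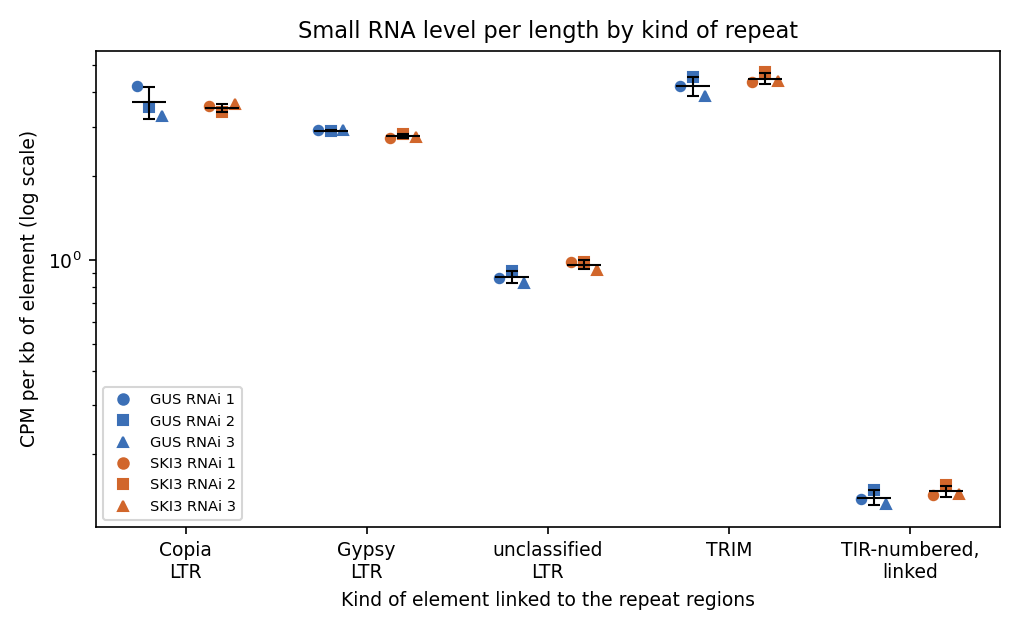
Small RNA level per length for the kinds of element linked to repeat regions, as CPM per kb of element on a log scale. Each point is a library (blue GUS RNAi, orange SKI3 RNAi), and horizontal marks with bars are the group mean ± SD of 3 libraries. TRIM and Copia regions lie between 3.29 and 4.71 CPM per kb and TIR-numbered regions near 0.14.

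The groups were then compared by the summed CPM of each kind. Gypsy regions summed to 21494, 21364 and 21538 CPM in GUS RNAi against 20273, 20934 and 20395 in SKI3 RNAi. The SKI3 RNAi libraries all lay below the GUS RNAi libraries, with a mean difference of -931 CPM. The exact two-sided permutation p was 0.1, the smallest that this design allows, and 0.3 after adjustment over 6 kinds. The sums were also scaled by TMM, a factor that sets most features level between libraries (added with the data in view). The factors had been estimated on features with enough counts for testing, but were multiplied here onto the totals of all features. The sums are therefore not on the scale of the edgeR fit described below, and sums on that scale were not computed. Under this scaling the Gypsy sums were 22589 ± 1633 and 19574 ± 1308 (SD, n = 3). These groups overlapped, with an exact permutation p of 0.2.

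Unclassified LTR regions had 1962 ± 96.0 CPM in GUS RNAi against 2171 ± 80.7 in SKI3 RNAi, without overlap, at an exact permutation p of 0.1 (n = 3). That difference depended on the scaling. Multiplying the totals of all features by the TMM factors gave 2059 ± 41.5 and 2067 ± 92.8. How large the difference is under the scaling of the edgeR fit was not computed. Copia regions had 13343 ± 1729 and 12733 ± 437 CPM, and the exact permutation p was 0.9 (n = 3). TRIM regions had 5360 ± 413 and 5697 ± 263 CPM at an exact permutation p of 0.4, and TIR-numbered regions 3203 ± 191 and 3389 ± 156 CPM at 0.3 (n = 3). With the factors applied in that way the sums of TRIM and TIR-numbered regions turned round, to differences (SKI3 RNAi minus GUS RNAi) of -196 and -136 CPM. The difference of Copia regions grew from -610 to -1862 CPM. Regions without a placed element had 113314 ± 6035 and 110143 ± 1271 CPM at an exact permutation p of 0.6 (n = 3). Their difference of -3171 CPM became -14015 CPM with TMM and -49.9 CPM without GUS RNAi replicate 1. Over all repeat regions the TMM-scaled difference was -19216 CPM, with an exact permutation p of 0.2 and overlapping groups. No kind had groups that lay apart under both scalings.

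Counts were spread over many regions and no single one dominated. In GUS RNAi 663, 767 and 733 regions held 50% of the repeat-region counts, and in SKI3 RNAi 803, 855 and 734. The numbers for 90% ran from 2715 to 2983 regions. The most counted region of a library held between 0.242% and 0.306% of its repeat-region counts. Relative to the 7095 regions with a count the distribution was still uneven, since about 1 region in 10 carried the first 50%. Among the 376530 other features, 310133 had a count, and between 4002 and 12164 of them held 50% of their counts.

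Concentration was compared between the groups by the share of the highest profiles. The 10 distinct profiles with the highest mean CPM held 1.80%, 1.75% and 1.92% of the repeat-region counts in GUS RNAi against 1.69%, 1.49% and 1.72% in SKI3 RNAi. The groups did not overlap, and the exact two-sided permutation p was 0.1, the smallest possible. For the 100 highest profiles the shares were 10.8% ± 0.814 and 9.87% ± 0.683, and for the 1000 highest 59.5% ± 1.73 and 56.6% ± 2.40 (SD, n = 3). Both overlapped between the groups, with exact permutation p-values of 0.2 and 0.3. The number of regions holding 50% of the counts averaged 721 ± 53.0 and 797 ± 60.7 and gave an exact permutation p of 0.2 (n = 3).

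**Figure D2:**
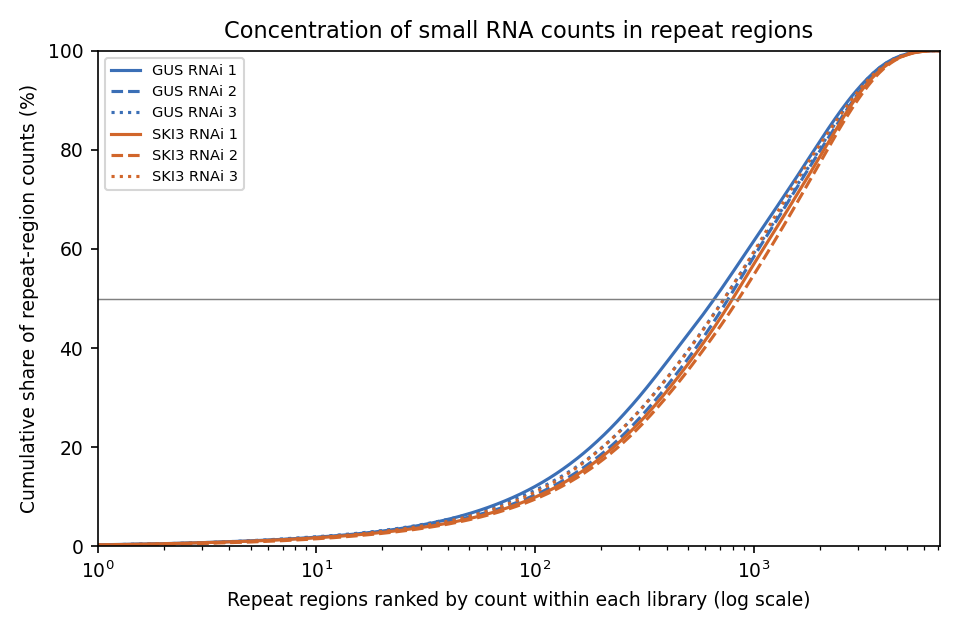
Cumulative share of repeat-region counts (%) against the rank of the region within each library on a log scale; each line is a library (blue GUS RNAi, orange SKI3 RNAi) and the grey line marks 50%. The lines cross 50% between 663 regions (GUS RNAi replicate 1) and 855 regions (SKI3 RNAi replicate 2).

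All 10 highest profiles were LTR/TRIM-numbered. The first by mean CPM was repeat_region5588.1 on chromosome 6, linked by its number to a TRIM element of 1952 bp at 24915526 to 24917477 in the MtrunA17 coordinates of the element IDs. It had 340, 428 and 431 CPM in GUS RNAi against 376, 373 and 347 in SKI3 RNAi. The groups overlapped, and the log2 fold change (SKI3 RNAi over GUS RNAi, from edgeR) was -0.23, with a standard error (SE) of 0.172. The next, repeat_region3545.1 on chromosome 4, had 510, 350 and 363 CPM in GUS RNAi against 420, 258 and 380 in SKI3 RNAi. Its neighbour repeat_region3543.1 had 394, 262 and 275 CPM in GUS RNAi against 314, 176 and 290 in SKI3 RNAi. In both regions replicate 1 was the highest of each group and SKI3 RNAi replicate 2 the lowest of all libraries.

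Several of these regions kept nearly constant ratios across libraries, in 1 case from different chromosomes. The counts of repeat_region540.1 on chromosome 1 were 0.707 to 0.729 times those of repeat_region5588.1 in every library. The ratio to the same region was 0.617 to 0.643 for repeat_region5589.1 and 0.518 to 0.581 for repeat_region5586.1, both on chromosome 6. The ratio of repeat_region3543.1 to repeat_region3545.1 was 0.683 to 0.771. TRIM fragments were frequent around them except repeat_region5589.1, which had 1. Within 10 rows of the feature table, which is in chromosome order, 5 of the 10 highest profiles had at least 8 TRIM fragments, against 1.49% of all LTR/TRIM-numbered regions with a count. These 5 are not separate places, since repeat_region5586.1 and repeat_region5588.1 are close in number, as are repeat_region3543.1 and repeat_region3545.1. Close regions may share the same fragments. That neighbourhood was examined after the values were seen.

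One of the 10 differed without overlap. Over all tested features the CPM of SKI3 RNAi lay wholly below that of GUS RNAi in 3.6%, and among the 4462 tested repeat-region profiles in 269. The region repeat_region5052.1 on chromosome 6 had 256, 246 and 295 CPM in GUS RNAi against 156, 170 and 231 in SKI3 RNAi. Its log2 fold change was -0.61 (SE 0.217), and its edgeR p was 0.0181 before and 0.744 after adjustment. The remaining profiles of the 10 were repeat_region5571.1 on chromosome 6 (304 ± 39.6 and 249 ± 49.4 CPM), repeat_region6585.1 on chromosome 7 (227 ± 23.0 and 215 ± 18.4 CPM) and repeat_region613.1 on chromosome 1 (219 ± 40.9 and 199 ± 19.3 CPM), each with overlapping groups (SD, n = 3). All 10 fold changes were below 0, between -0.17 and -0.61 on the log2 scale.

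**Figure D3:**
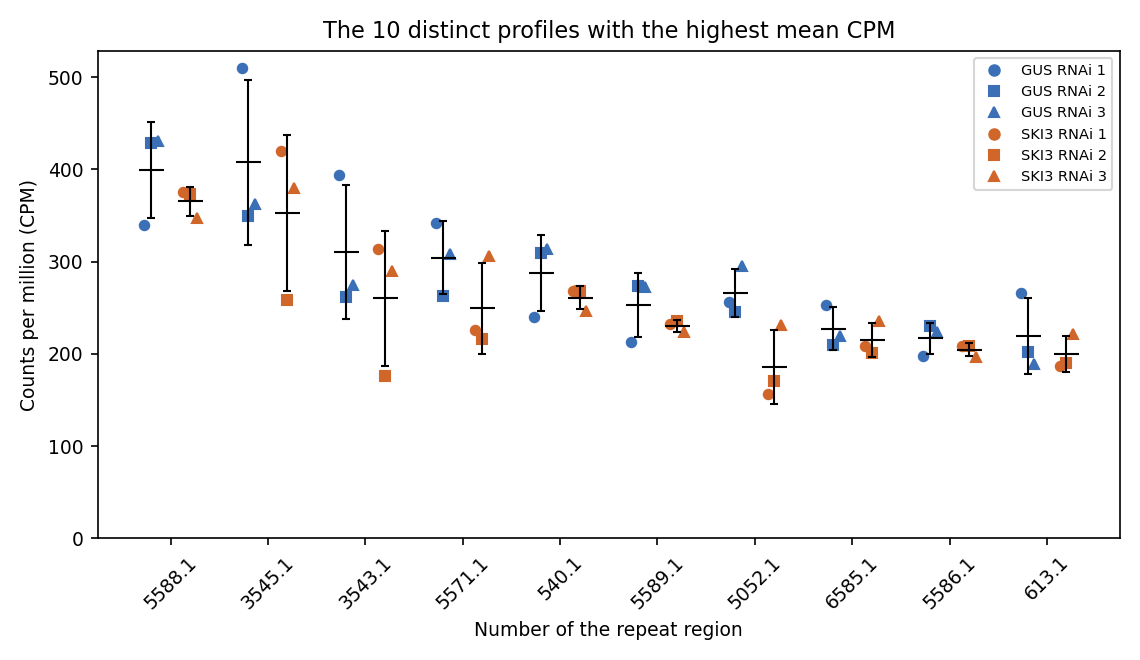
CPM of the 10 distinct repeat-region profiles with the highest mean level, ordered by that mean. Points are libraries (blue GUS RNAi, orange SKI3 RNAi), and horizontal marks with bars are the group mean ± SD of 3 libraries; only repeat_region5052.1 shows groups that do not overlap.

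Regions with the same 6 counts were collapsed to a single profile. The 7095 regions with a count gave 6520 distinct profiles, of which 172 were shared by 747 regions. Most sharing was a matter of low counts, and 698 of these regions had at most 10 counts over all libraries. The profile shared most, by 53 regions, consisted of a single count. After the filter on low counts, 4473 regions with 98.2% of all repeat-region counts remained for testing. A region passed only where its counts were high enough in at least 3 libraries, whichever their group. A region low in 1 group could thus pass through the other group alone, as repeat_region2988.1 did through GUS RNAi. The same holds for several other lower and some higher profiles named below, whose fold changes are in part set by this filter. The regions that passed formed 4462 distinct profiles, of which 6 were shared by 17 regions. Distinct profiles can still be near copies. The 3950 profiles with at least 100 counts fell to 2340 when those whose library shares differed by at most 0.01 were merged. The largest merged group held 89. Unrelated regions can also have like shares, so the number of separate measurements is not known, and counts of profiles below are not counts of independent ones.

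The shared profile of most tested regions belonged to 5 of them, repeat_region585.1, repeat_region1573.1, repeat_region3012.1, repeat_region3708.1 and repeat_region5759.1. The first is linked to a Gypsy element of 8915 bp on chromosome 1, at 24173980 to 24182894. All 5 had 150, 82 and 131 counts in GUS RNAi against 110, 102 and 133 in SKI3 RNAi, which is 37.7 ± 0.124 and 44.5 ± 6.19 CPM (SD, n = 3). The log2 fold change was 0.14 (SE 0.194) and turned to -0.034 without SKI3 RNAi replicate 3.

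Differences between the groups were tested with edgeR's quasi-likelihood test, fitted on all 48283 features with enough counts and adjusted over all of them. No feature passed an adjusted p of 0.05, so 0.0% were called in the whole table and 0 among repeat regions, and DESeq2 also called 0. At an unadjusted p under 0.05 there were 236 of the 4462 repeat-region profiles (5.29%), below the 6.58% of all tested features. Of these profiles 71 were higher and 165 lower in SKI3 RNAi. Over all tested features 3.57% were higher and 3.01% lower at that p. Scaling by total counts alone turned the split of the profiles to 120 higher and 83 lower, where 5.3% of all features were higher and 1.74% lower. Without GUS RNAi replicate 3 the split was 90 and 74, with 3.0% and 1.85% of all features. DESeq2 gave 23 higher and 112 lower, with 1.01% and 1.36% of all features. With no filter on low counts, 45 repeat regions in 37 profiles passed the adjusted p, against 0.109% of the 317228 features then tested, and 195 profiles were higher and 357 lower at the unadjusted p, against 2.43% and 2.22%.

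The median log2 fold change of the profiles was -0.09, against 0.02 for all tested features, and their quartiles were -0.23 and 0.10. Below 0 lay 63.1% of the profiles and 48.1% of all tested features. Scaling by total counts alone moved the medians to 0.006 and 0.12, and the distance between them was -0.11 under either scaling. That was largely fixed in advance, since a change of scaling shifts all fold changes by nearly the same amount. An absolute log2 fold change of at least 1 was reached by 42 profiles, 25 higher and 17 lower, and their median total of 97.5 counts was under the 376 counts of all tested profiles.

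The direction went with the level of a region. Among the 504 profiles with a mean up to 3 on the log2 CPM scale 41.1% lay below 0, with a median log2 fold change of 0.09. The percentage was 48.2% for the 867 profiles from 3 to 4, 60.6% for 1183 from 4 to 5, and 62.9% for 971 from 5 to 6. It was 89.5% for 581 profiles from 6 to 7 and 95.8% for 356 above 7, whose medians were -0.15 and -0.25. Those 356 profiles held 30.6% of all repeat-region counts, and 65 of the 165 lower profiles were among them. Of the other tested features, 44.4%, 44.6% and 49.6% lay below 0 in the 3 lower ranges, and 63.1%, 73.3% and 66.0% in the 3 upper ranges. Their medians in the 3 upper ranges were -0.10, -0.23 and -0.14, against -0.06, -0.15 and -0.25 for repeat regions. Among these 3 ranges repeat regions had the lower median only above 7. They also had it from 3 to 4 (0.016 against 0.050) and from 4 to 5 (-0.074 against 0.004), but not up to 3 (0.09 against 0.06). With total counts alone the medians of the 2 upper ranges of repeat regions were -0.06 and -0.15. The part of the level in the lower median of repeat regions was not tested further.

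**Figure D4:**
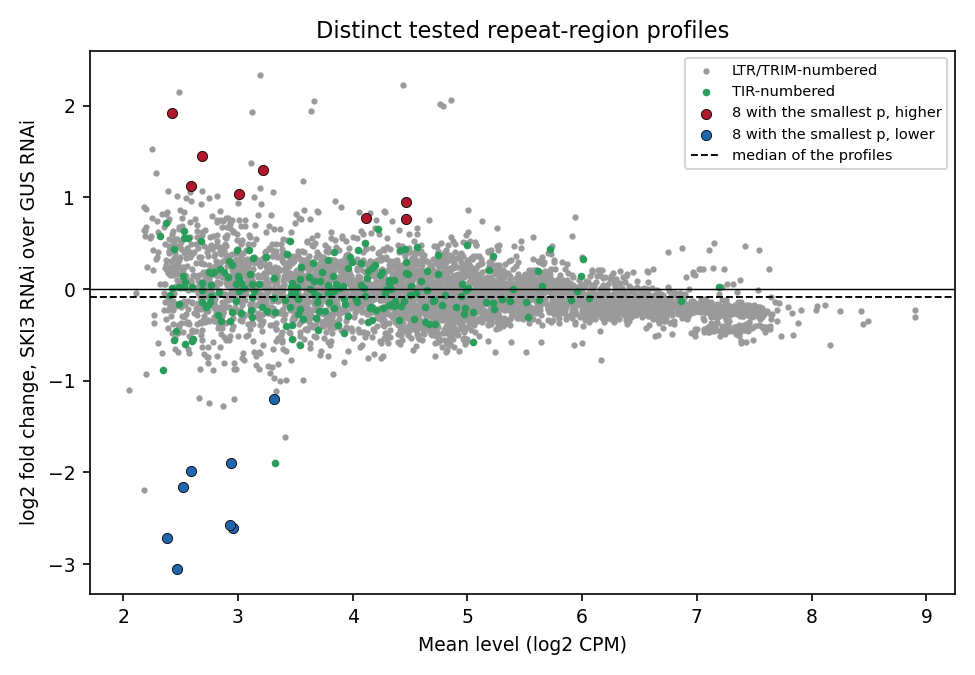
log2 fold change (SKI3 RNAi over GUS RNAi, edgeR) against mean level (log2 CPM) for the 4462 distinct tested repeat-region profiles, with TIR-numbered profiles in green. The 8 higher and 8 lower profiles with the smallest p are outlined, the dashed line is the median of -0.09, and most profiles above 6 on the horizontal axis lie below 0.

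By kind, the percentage of profiles that were lower at an unadjusted p under 0.05 was 6.18% among Gypsy regions and 3.79% among regions without a placed element, against 3.70% of all repeat-region profiles and 3.01% of all tested features. Of 599 tested Gypsy profiles 4 were higher and 37 lower at that p, with a median log2 fold change of -0.12. With total counts alone these counts were 8 and 13. For 2979 profiles without a placed element the counts were 41 and 113, with a median of -0.09, and with total counts alone 71 and 62. Copia had 7 higher and 5 lower of 294 and a median of -0.14. TRIM had 13 higher and 5 lower of 250 with a median of 0.04, unclassified LTR 4 and 2 of 129 with 0.04, and TIR-numbered regions 2 and 3 of 211 with -0.02. The kinds were not tested against each other.

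The 8 lower profiles with the smallest p were regions of low counts. The lowest fold change belonged to repeat_region2988.1 and repeat_region2989.1 on chromosome 3, which shared 27, 11 and 23 counts in GUS RNAi against 2, 2 and 2 in SKI3 RNAi. All SKI3 RNAi libraries were below the floor of 3 counts. Summed over libraries the CPM was 0.122 times that of GUS RNAi, with an exact 95% interval of 0.0430 to 0.280 for counting error only. The interval uses the same counts by which the region was chosen, so it does not hold its 95% level for a region picked by its p. Its log2 fold change from edgeR was -3.05 (SE 0.419), at an adjusted p of 0.156. The profile of repeat_region833.1 had 43, 15 and 30 counts in GUS RNAi against 5, 3 and 4 in SKI3 RNAi, and repeat_region868.1, repeat_region2546.1 and repeat_region5217.1 had the same counts. The profile of repeat_region5474.1 on chromosome 6 differed from it by at most 1 count in any library, with 42, 15 and 29 against 5, 3 and 4. Their log2 fold changes were -2.61 and -2.58 with standard errors of 0.360 and 0.358, and both had an adjusted p of 0.156. These 7 regions therefore give 3 profiles, and 2 of the 3 are nearly the same measurement.

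The other lower profiles had an adjusted p of 0.744. On chromosome 1, repeat_region171.1 had 9.56, 8.30 and 6.60 CPM in GUS RNAi against 2.45, 1.72 and 2.68 in SKI3 RNAi. On chromosome 8, repeat_region7896.1 showed 27, 13 and 15 counts in GUS RNAi against 5, 0 and 2 in SKI3 RNAi. On chromosome 2, repeat_region1107.1 had 9.63 ± 1.28 and 4.54 ± 0.655 CPM, and on chromosome 6, repeat_region5613.1 had 6.22 ± 1.48 and 1.61 ± 1.03 CPM (SD, n = 3). On chromosome 7, repeat_region6274.1, linked to a Gypsy element of 6634 bp at 11409695 to 11416328, had 20, 23 and 13 counts in GUS RNAi against 3, 5 and 3 in SKI3 RNAi. In all 8 the groups did not overlap, a property that the choice by p largely fixes; over all tested features the CPM of SKI3 RNAi lay wholly below that of GUS RNAi in 3.6%.

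A common neighbour was seen among these lower profiles after their values were known. A fragment of the helitron family DHH_singleton_family491 lay within 10 rows of 6 of the 8. Among these 6, repeat_region833.1 and repeat_region5474.1 are nearly the same measurement. Fragments of other families near these regions are not described here. In all, 174 repeat regions have such a neighbour, 91 of them had a count and 44 were tested. Of their 40 distinct profiles 28 had a log2 fold change below 0, against the 63.1% of all tested profiles. The 40 include the 6 lower profiles that drew attention to this family. That comparison is therefore partly fixed by the choice and shows nothing further about the family.

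The 8 higher profiles with the smallest p had an adjusted p of 0.744 each and log2 fold changes of 0.77 to 1.92. On chromosome 3, repeat_region2877.1, linked to a Copia element of 13029 bp at 35858384 to 35871412, had 9.81, 9.22 and 9.18 CPM in GUS RNAi against 18.2, 16.4 and 17.2 in SKI3 RNAi. Its log2 fold change was 0.77 (SE 0.214). On chromosome 8, repeat_region7538.1, linked to a Copia element of 4704 bp at 23338002 to 23342705, had 13, 2 and 8 counts in GUS RNAi against 20, 18 and 16 in SKI3 RNAi, a log2 fold change of 1.45 (SE 0.385). On chromosome 3, repeat_region2447.1, linked to a TRIM element of 1475 bp at 16269641 to 16271115, had 3.72 ± 0.440 and 8.15 ± 1.16 CPM (SD, n = 3).

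Among the others, repeat_region3461.1 on chromosome 4 had 3.93 ± 0.995 and 9.98 ± 3.31 CPM, repeat_region1333.1 on chromosome 2 had 12.4 ± 2.36 and 22.2 ± 2.23, and repeat_region6824.1 on chromosome 7 had 11.04 ± 2.60 and 23.5 ± 7.34 (SD, n = 3). The region repeat_region4679.1 on chromosome 5 showed 9, 6 and 9 counts in GUS RNAi against 14, 18 and 14 in SKI3 RNAi. The last, repeat_region5450.1 on chromosome 6, is linked to a TRIM element of 1291 bp at 20806384 to 20807674 and had 2, 2 and 10 counts in GUS RNAi against 14, 22 and 11 in SKI3 RNAi. Its GUS RNAi replicate 3 had 2.87 CPM, between the 0.503 and 0.922 CPM of the other GUS RNAi libraries and the 4.21 CPM of the lowest SKI3 RNAi library. The groups of all 8 did not overlap, as in 10.5% of all tested features in this direction.

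Some regions were almost silent in certain libraries and well covered in others of the same group. The CPM of the highest library, with counts under 3 raised to 3, was at least 10 times that of the lowest in 35 of the 4462 profiles (0.784%). Among the 43810 other tested features, whose levels were not matched to those of repeat regions, it held for 2.79%. The median ratio of highest to lowest library was 1.63 for repeat-region profiles and 2.13 for other features. Libraries below 20% of the highest were called low, and the 35 profiles had 12 different sets of low libraries. Of these sets 7 occurred in a single profile, and the 3 most frequent took 24 of the 35 profiles and were spread over several chromosomes. This description was made after the values were seen.

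The most frequent pattern, in 14 profiles on 6 chromosomes, had low counts in SKI3 RNAi replicates 2 and 3 and the highest level in SKI3 RNAi replicate 1. Thus repeat_region7073.1 on chromosome 7 showed 154, 75 and 156 counts in GUS RNAi against 300, 2 and 4 in SKI3 RNAi. The region repeat_region2113.1 on chromosome 3, linked to a Gypsy element, had 210, 117 and 212 counts in GUS RNAi against 370, 24 and 18 in SKI3 RNAi. With all libraries their log2 fold changes were -0.23 and -0.29. In a fit that omitted SKI3 RNAi replicate 1, 26 repeat regions with 22 distinct profiles had an adjusted p under 0.05 in edgeR, all lower in SKI3 RNAi, against 0.973% of all features tested in that fit. In 17 of the 22, the omitted library lay above every GUS RNAi library, at 1.89 to 2.68 times the GUS RNAi mean. The other 5 were repeat_region833.1, repeat_region2988.1, repeat_region5474.1, repeat_region171.1 and repeat_region7896.1, where all SKI3 RNAi libraries were low.

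A different pattern, in 6 profiles on 4 chromosomes, had counts in GUS RNAi replicate 2 and SKI3 RNAi replicates 1 and 2 and few or none in the other libraries. The clearest cases were repeat_region834.1 on chromosome 1, with 3, 61 and 0 counts in GUS RNAi against 166, 112 and 0 in SKI3 RNAi, and repeat_region6040.1 on chromosome 7, with 4, 62 and 0 and 169, 113 and 0. These came from different chromosomes and differed by at most 3 counts per library. Another pattern, in 4 profiles on 4 chromosomes, was low in GUS RNAi replicates 1 and 2 only. It included repeat_region2926.1 on chromosome 3, with 0, 1 and 54 counts in GUS RNAi against 56, 109 and 55 in SKI3 RNAi, and also repeat_region5450.1 from the higher profiles above.

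On chromosome 8, repeat_region7489.1, repeat_region7493.1 and repeat_region7495.1 had 0 counts in GUS RNAi replicate 2 and between 18 and 34 counts in GUS RNAi replicate 1. The first had 34, 0 and 72 counts in GUS RNAi against 14, 82 and 39 in SKI3 RNAi. The TIR-numbered repeat_region2919 on chromosome 2 was high in a single library, with 101 counts in GUS RNAi replicate 1 and 6 to 12 in each of the others. Whether plants, constructs or libraries differ along these patterns was not tested, and the labels name no batch that could be set beside them.

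**Figure D5:**
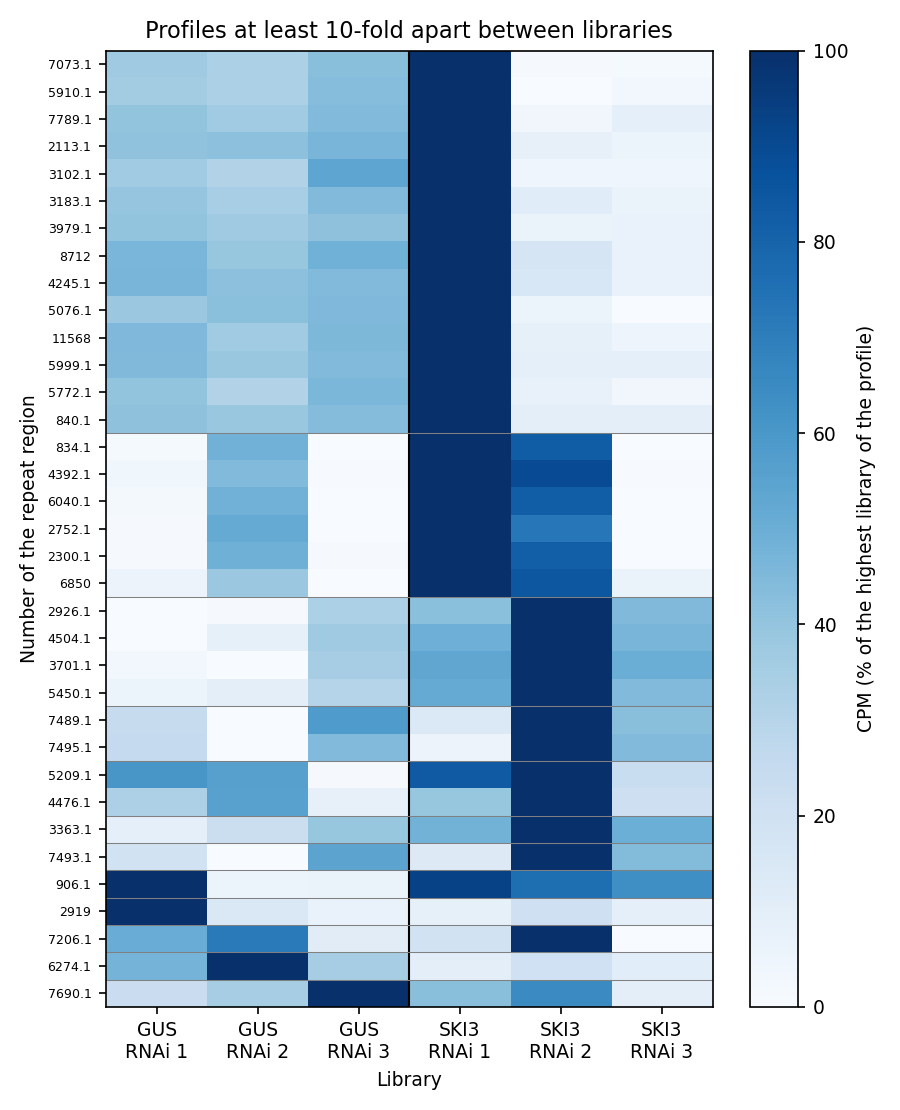
CPM of the 35 repeat-region profiles that differ at least 10-fold between libraries, as a percentage of the highest library of each profile (dark is 100%, white 0). Rows are profiles grouped by the set of low libraries, columns are libraries, and the vertical line separates GUS RNAi from SKI3 RNAi; the top 14 rows are high in SKI3 RNAi replicate 1 and low in replicates 2 and 3.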

How the data were processed

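Per the labels' protocols, small RNA libraries were made from 500 ng of total RNA with a ligation kit. The submitters' processing notes name cutadapt 2.10, Bowtie 1.3.1 and DESeq2 1.34.0, without roles. The authors deposited 1 table of raw counts per library, with a whole number for every feature. How reads with several matches, overlapping features and strand were counted is not given in the sources used here. A header line inside 1 table, which was dropped, names reads of 21 to 22 nt, and no other table states a length, so totals may be part of a library.

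Counts were tested with edgeR 4.0.16 in R 4.3.3 (TMM scaling, filterByExpr with a minimum count of 10, quasi-likelihood test with group as the only term, Benjamini-Hochberg adjustment over all 48283 tested features, threshold 0.05). Standard errors were obtained as log2 fold change over the square root of F. For percentages and sums, exact permutation tests were used (two-sided), whose smallest p is 0.1. Nothing says that libraries of a group came from separate plants, so p-values measure the spread between these libraries, which may be technical. The fit was tested on simulated data.

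Named profiles were the 10 with the highest mean CPM, the 8 higher and 8 lower with the smallest p, the 3 tested profiles shared by most regions (ties by lowest number), and repeat_region2988.1 and repeat_region2546.1. The last of these 3, repeat_region907.1 with repeat_region908.1 on chromosome 1, was tied with 3 other profiles of 2 regions each and showed 23, 2 and 1 counts in GUS RNAi against 20, 14 and 12 in SKI3 RNAi. Others are named by their pattern over libraries and were picked with their values in view. The members, the lists and the rule were chosen with earlier results of these data known. Chromosomes come from the neighbouring rows. No sequence of a region was used here. Alternatives were another scaling, filter and test, identical profiles kept once, a replicate block, and each library or the 10 most counted features left out.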

Additional observations from a re-analysis of the deposited data

How the results depend on the processing

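The count of repeat regions past an adjusted p of 0.05 was 0 in all alternatives except 2: it was 45 regions in 37 profiles with no filter on low counts, where 317228 features were tested, and between 0 and 26 when single libraries were left out, with 26 without SKI3 RNAi replicate 1. Profiles at an unadjusted p under 0.05 numbered 236; DESeq2 gave 135, no filter 552 (195 higher, 357 lower), at least 1 CPM in 3 libraries 330 (5.97%, against 5.73% of all features tested there), and leaving out single libraries 153 (without GUS RNAi replicate 1, 3.36% against 5.30%) to 319 (without SKI3 RNAi replicate 3, 6.92% against 8.93%). The causes were not tested. The share of library counts in repeat regions, SKI3 RNAi minus GUS RNAi, was -0.398 percentage points and ran from -0.790 to 0.00972 over single libraries left out, above 0 only without GUS RNAi replicate 1; without the 10 most counted features it was -1.52. The summed CPM by kind was recomputed with TMM scaling and with single libraries left out, alternatives chosen after seeing the data. The TMM factors were again multiplied onto the totals of all features, so these sums are not on the scale of the edgeR fit. The difference turned with TMM to -136 CPM for TIR-numbered and -196 CPM for TRIM regions, grew to -1862 for Copia, -3016 for Gypsy and -14015 for regions without a placed element, and shrank to 8.07 for unclassified LTR. Over single libraries left out it ran from -1323 to 352 CPM for Copia, above 0 without GUS RNAi replicate 1, and from -6073 (without GUS RNAi replicate 3) to -49.9 (without GUS RNAi replicate 1) for regions without a placed element. The ranges were 130 (without GUS RNAi replicate 3) to 543 (without GUS RNAi replicate 2) for TRIM, 95.3 (without SKI3 RNAi replicate 2) to 287 (without GUS RNAi replicate 2) for TIR-numbered, 165 to 261 for unclassified LTR and -1131 to -801 for Gypsy regions. For the 28 named profiles, 390 of 391 refitted fold changes kept their direction, and that of repeat_region585.1 ran from -0.034 (without SKI3 RNAi replicate 3) to 0.24 over single libraries left out. The adjusted p of repeat_region2988.1 ran from 9.39e-06 to 0.967, that of repeat_region833.1 from 2.96e-06 to 0.967 and that of repeat_region5474.1 from 5.19e-06 to 0.967; they were under 0.05 with no filter and without SKI3 RNAi replicate 1. So were repeat_region171.1 and repeat_region7896.1, and with no filter alone repeat_region5613.1, repeat_region6274.1 and repeat_region5450.1. Same-numbered libraries correlated in their deviations at 0.0710, 0.190 and 0.251. Differently numbered libraries were not compared, so these values cannot decide whether the numbers mark pairs. The labels do not say that they do, and the main fit took no pairs. A fit with replicate block gave 0 regions past the threshold and 309 profiles at an unadjusted p under 0.05 (96 higher, 213 lower). These were 6.93% of the profiles, against 7.97% of all tested features. Depth limits repeat_region2988.1 most among the 8 lower profiles, since it alone was below 3 counts in all SKI3 RNAi libraries.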

Other observations

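The level of repeat regions differed between chromosomes. Among LTR/TRIM-numbered regions the percentage with a count ran from 78.8% on chromosome 1 to 87.1% on chromosome 6, and the mean level per region from 15.9 CPM on chromosome 8 (15.2 to 16.9 over the 6 libraries) to 22.3 CPM on chromosome 6 (21.6 to 23.9), which did not overlap. Among TIR-numbered regions 2.28% on chromosome 7 to 3.45% on chromosome 1 had a count, and the mean level per region ran from 0.144 CPM on chromosome 3 (0.135 to 0.149) to 0.245 CPM on chromosome 1 (0.215 to 0.265). The kinds and lengths of the regions on each chromosome were not set equal in this comparison. The summed CPM of neither series differed between the groups on any of the 8 chromosomes beyond the spread between libraries: the smallest of the 16 exact permutation p-values was 0.2, and 0.727 after adjustment. On unplaced scaffolds 110 of 221 regions had a count.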
